A study of Sus scrofa domesticus with 4 samples.

Results

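The genes described are 6 genes of prostaglandin synthesis and reception in the anterior pituitary of the pig: PTGS1, PTGS2, PTGES, CBR1, AKR1B1 and PTGFR. They were taken by name, and their probes are those whose RefSeq accession belongs to one of them, 9 of the 43603 probes on the array. Of the 6 genes 5 were measured, through 7 of the 9 probes, among 21627 measured probes of all genes; a probe counts as measured when it lay well above background in every gilt of at least 1 group. Pituitaries were taken from 8 mature gilts, females yet to farrow, bred as Large White x Polish Landrace and weighing about 110 kg. Of these, 4 were pregnant, mated naturally and killed on days 12 to 13 of gestation with conceptuses present, and 4 were cyclic, killed on days 12 to 13 after estrus with the stage read from the ovaries. On each of the 4 arrays 1 pregnant gilt was set against 1 cyclic gilt in the other dye. By the sample labels the pregnant gilt was in Cy3 on the odd arrays (1 and 3) and in Cy5 on the even arrays (2 and 4).

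Prostaglandins are lipid signals made on demand from arachidonic acid. The cyclooxygenases PTGS1 and PTGS2 convert it to an unstable endoperoxide, which terminal enzymes turn into the separate prostaglandins: PTGES and its relatives make the E form, and reductases such as AKR1B1 and CBR1 can yield the F form. The E and F forms act through membrane receptors, among them PTGFR for the F form. In the pig the days studied are those on which conceptuses signal their presence and the balance of the E and F forms bears on the corpus luteum. In the anterior pituitary, prostaglandins have been studied as modulators of hormone release.

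The comparison asked whether transcripts of these genes differ with early pregnancy at matched days. PTGES, the inducible terminal synthase of prostaglandin E, had the ratio farthest from 0, with higher values in the pregnant gilt on each array. PTGS1 had lower values in the pregnant gilt on each array, by less. PTGS2 went in opposite directions on different arrays, CBR1 and AKR1B1 stayed close to 0, and PTGFR did not meet the detection rule. By limma with Benjamini-Hochberg adjustment 0 of the 7 measured probes passed an adjusted p of 0.05, as did 0% of the 21627 probes (percent called 0). At an unadjusted p under 0.05, 1 of the 5 measured genes was listed, PTGES, upwards. Over all probes 10.4% were listed upwards and 7.62% downwards, and of the 1744 measured named genes 5.39% and 8.43% (13.8% in all). With 4 arrays the precision of each ratio is limited.

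The arrays differed in quality. No spot was saturated, and 47.5% to 71.8% of the spots of an array lay well above background in a channel. Array 4 had a faint region of 6200 spots (13.7%), called the dim area here, where 84.9% of spots bright elsewhere were missing. Outside it 0.31% were missing, a contrast partly built in because the region was drawn from such losses. The array 4 spots of CBR1 and of the second probe of PTGES lie in that area. Levels below are log2 channel intensities after normalisation. They are compared between gilts within a probe and never between probes. With the dim spots left out first, levels of the 4 measured members other than CBR1 shifted by -0.20 to -0.17 on array 4 and by 0.02 to 0.06 on the other arrays.

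**Figure D1:**
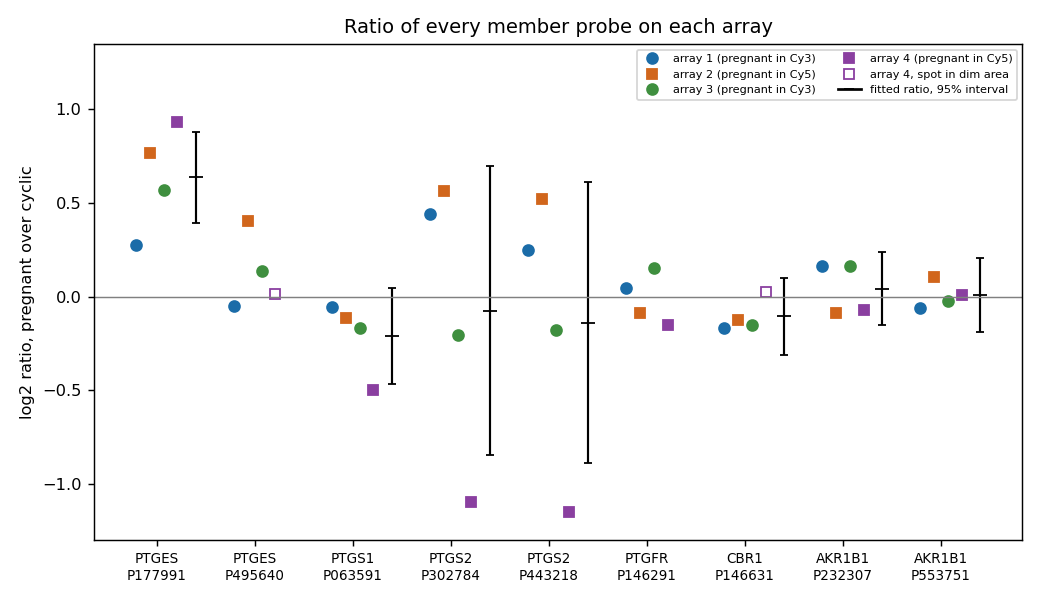
Log2 ratio of pregnant over cyclic (y axis) for each of the 9 probes (x axis), with 1 point per array, circles for pregnant RNA in Cy3, squares for Cy5, open squares for spots in the dim area of array 4, and black bars for the fitted ratio with its 95% interval. The probe P177991 of PTGES has its 4 points between 0.27 and 0.94, while both PTGS2 probes spread from above 0.5 to below -1.

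PTGES was measured by 1 of its 2 probes for NM_001038631 (A_72_P177991). Its log2 ratios on arrays 1 to 4 were 0.27, 0.77, 0.57 and 0.94. The fitted ratio was 0.64 ± 0.28 (SD, n = 4), 1.55-fold higher in pregnant gilts, with an SE of 0.093 and a 95% interval of 0.40 to 0.88. In limma, fitted across all genes, it did not pass after adjustment (adjusted p = 0.235). Its unadjusted p ranked 69 among the 21627 probes. An exact sign-flip permutation test over the 4 arrays gave a two-sided p of 0.125, the smallest that 4 arrays allow. The ratio was positive on the 4 arrays, as for 14.6% of the probes with 4 ratios. A fitted ratio at least as far from 0 was seen for 2.74% of all measured probes and for 1.55% of named genes.

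The levels of this PTGES probe were 9.54, 9.32, 9.26 and 9.76 in the pregnant gilts of arrays 1 to 4. In the cyclic gilts they were 9.26, 8.55, 8.69 and 8.82. The cyclic gilt of array 1 thus stood above the other 3 cyclic gilts and level with the lowest pregnant gilt, at 9.26 to 2 decimals. The pregnant levels lay wholly above the cyclic ones for 2.08% of the probes with 4 ratios; PTGES did not meet this as reported. With the dim spots left out it did, by less than the second decimal: the lowest pregnant level was 9.3197 and the highest cyclic level 9.3192. The share over all probes was not computed in that setting. As reported, the pregnant levels lay wholly below the cyclic ones for 0.91% of the probes, which held for 0 of the 7 member probes. Leaving out array 1 raised the ratio to 0.71 and brought the adjusted p to 0.0153 in limma. In that setting 3381 of 21840 probes passed. Without array 2, 3 or 4 PTGES did not pass (limma, adjusted p = 0.853, 0.13 and 0.588). Treating the 8 gilts as separate channels left the ratio at 0.64 and gave an adjusted p of 0.0209 in limma. PTGES was among 1021 of 19880 probes called in that fit.

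The ratio of PTGES was smaller on arrays 1 and 3, with a mean of 0.42, than on arrays 2 and 4, with a mean of 0.85. The fit takes this as a dye effect of 0.22, and a difference between the gilts of those arrays cannot be told apart from it. The labelling protocol can be read as placing pregnant RNA in Cy3 on every array; under that reading the ratio of PTGES would be -0.22 and would not pass (limma, adjusted p = 0.867). The authors' deposited value table follows the sample labels in sign on the 4 arrays. It gives 0.32, 0.89, 0.50 and 1.10 for this probe.

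The second PTGES probe, A_72_P495640, carries the same accession but gave smaller ratios. They were -0.05, 0.40 and 0.13 on arrays 1 to 3, against 0.27, 0.77 and 0.57 for the first probe. The first probe therefore exceeded the second by 0.32, 0.37 and 0.43, a mean gap of 0.37 ± 0.06 (SD, n = 3). On array 4 the second probe read 35 intensity units for the pregnant and 43 for the cyclic gilt, over local backgrounds of 35 and 46.5. Its ratio there, 0.01, comes from a spot not above its local background. The probe was well above background in 6 of 8 gilts and was left out of the measured probes for that reason. Without a filter and without the dim spots its fitted ratio was 0.22 with an SE of 0.084 (limma, adjusted p = 0.41). Over the 6 gilts of arrays 1 to 3 the levels of both probes ran in parallel, with a Pearson r of 0.86 given as a description. Over arrays 1 to 3 the fitted ratio of the first probe was 0.59, against 0.22 for the second.

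PTGS1 is the constitutive cyclooxygenase, and its single probe (XM_001926129) gave a small negative ratio on each array: -0.05, -0.12, -0.17 and -0.50. The fitted ratio was -0.21 ± 0.20 (SD, n = 4), with a 95% interval of -0.47 to 0.05. It did not pass (limma, p = 0.0905, adjusted p = 0.332; exact sign-flip permutation test, two-sided p = 0.125). Negative ratios on the 4 arrays were seen for 11.3% of the probes with 4 ratios. The signal was low, with readings of 80 to 175 intensity units over local backgrounds of 27 to 39. The pregnant gilts had levels of 7.17, 7.17, 7.16 and 7.49, and the cyclic gilts 7.23, 7.28, 7.32 and 7.99. Both gilts of array 4 stood above the rest in these normalised levels, though their readings before normalisation, 126 and 101.5 units, did not. With the dim spots left out first, the pregnant gilt of array 4 came to 7.30 and the cyclic one to 7.80, each still the highest of its group. Without array 4 the ratio was -0.11 (limma, adjusted p = 0.798). The authors' deposited value table, which is not centred, gives 0.0716 on array 1, where the median of all its values is 0.0747. On arrays 2 to 4 it gives -0.57, -0.24 and -0.92. After median centring its fitted ratio was -0.32 (limma, adjusted p = 0.329).

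PTGS2, the inducible cyclooxygenase, had the widest spread between arrays among the measured members. The first of its 2 probes for NM_214321 (A_72_P302784) gave log2 ratios of 0.44, 0.56, -0.21 and -1.10, and the other (A_72_P443218) gave 0.25, 0.52, -0.18 and -1.15. Each array thus had the same sign on both probes. Over the 8 gilts their levels had a Pearson r of 0.90, as a description. The SD of the ratios, 0.76 and 0.73, was larger than that of 97.6% and 97.2% of the measured probes with 4 ratios, whose median SD was 0.22. The fitted ratios were -0.08, with a 95% interval of -0.85 to 0.70, and -0.14, with -0.89 to 0.61 (limma, adjusted p = 0.914 and 0.827).

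The pregnant gilts had PTGS2 levels of 6.74, 7.56, 6.60 and 6.59 on the first probe, and the cyclic gilts 6.30, 7.00, 6.81 and 7.68. The pregnant gilt of array 2 and the cyclic gilt of array 4 were the highest of their groups, and the groups overlapped. The other probe had the same 2 gilts highest, at 7.32 and 8.06. PTGS2 was weakly detected. Its 2 probes read 48 to 254 intensity units over local backgrounds of 27 to 45.5, although both were well above background in all 8 gilts by the scanner's flags. Ratios of such dim spots are drawn toward 0 by the offset of 50 used here. The authors' deposited value table, without that offset, gives 1.18, 1.25, -0.66 and -2.81 for the first probe and 1.05, 1.26, -0.55 and -3.04 for the other. There the sign of each array is the same as here and the values lie farther from 0. The sign of the mean was set by single arrays: without array 4 the ratio was 0.34, without array 3 it was 0.09, and without array 2 it was -0.49, none of which passed in limma.

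**Figure D2:**
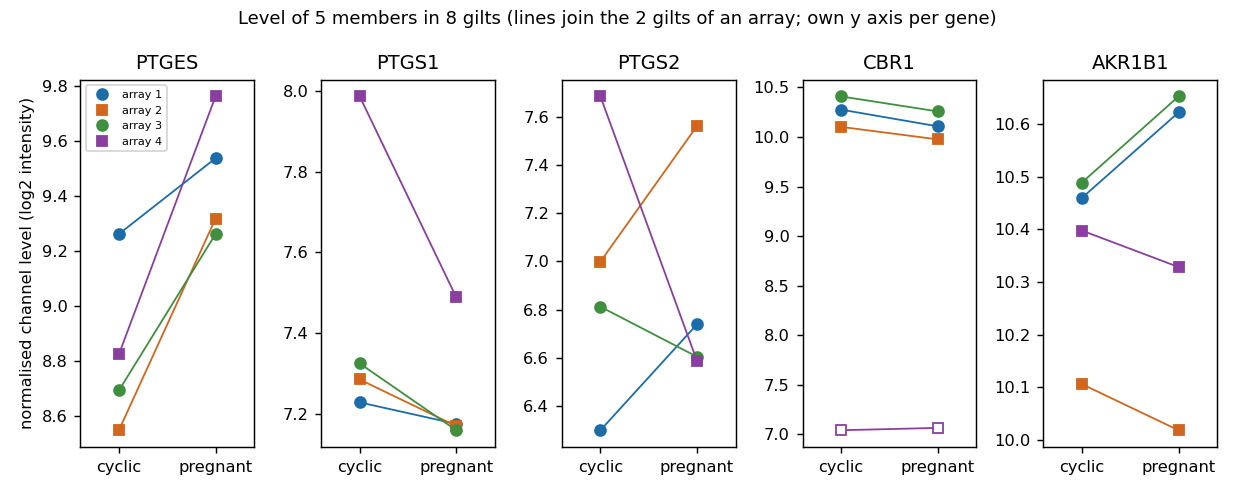
Normalised channel level (y axis, log2 intensity, a separate axis for each gene) of the 5 measured members in the cyclic and the pregnant gilt of each array, joined by a line, with circles for pregnant RNA in Cy3, squares for Cy5 and open symbols for spots in the dim area of array 4. The 4 lines of PTGES rise toward the pregnant gilt, those of PTGS1 descend, those of PTGS2 cross, and both CBR1 levels of array 4 lie near 7.0 against 9.98 to 10.4 on the other arrays.

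CBR1, a carbonyl reductase that can turn the E form into the F form, had 1 probe (NM_214073). Its log2 ratios were -0.17, -0.13 and -0.15 on arrays 1 to 3, close to each other. On array 4 the ratio was 0.02, from a spot in the dim area that read 85 and 57.5 intensity units where the other arrays read 726 to 2285. The fitted ratio was -0.11 ± 0.09 (SD, n = 4), and -0.14 with an SE of 0.10 once the dim spots were left out. Neither passed (limma, adjusted p = 0.508 and 0.524). The 95% interval of the first ran from -0.31 to 0.10 and does not reach 0.64 in either direction. On arrays 1 to 3 the pregnant gilts had levels of 10.11, 9.98 and 10.26 and the cyclic gilts 10.28, 10.10 and 10.41, so the groups overlapped.

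AKR1B1, the aldose reductase that also has prostaglandin F synthase activity, was measured by 2 probes for NM_001001539. The first (A_72_P232307) gave 0.16, -0.09, 0.16 and -0.07, and the other (A_72_P553751) -0.06, 0.11, -0.02 and 0.01. On arrays 1, 2 and 3 the probes had opposite signs, as on array 4. The sign of each probe followed the dye orientation: the first was positive on both arrays with pregnant RNA in Cy3 and negative on both others, and the other the reverse. In the authors' deposited value table, which is not centred, the other probe has -0.0317, -0.074, -0.2247 and -0.0459 on arrays 1 to 4. The medians of all values there are 0.0747, -0.0758, -0.1825 and -0.1746. The probe thus lies below the median on arrays 1 and 3 and above it on arrays 2 and 4. The fitted ratios were 0.04, with a 95% interval of -0.15 to 0.24, and 0.01, with -0.19 to 0.21 (limma, adjusted p = 0.796 and 0.969). The levels of the first probe were 10.62, 10.02, 10.65 and 10.33 in pregnant and 10.46, 10.11, 10.49 and 10.40 in cyclic gilts. Both gilts of array 2 were the lowest of their groups.

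PTGFR, the receptor of prostaglandin F, had 1 probe (NM_214059), which was well above background in 2 of 4 pregnant and 1 of 4 cyclic gilts. It is therefore reported as not detected. Its readings ran from 33 to 48.5 intensity units over local backgrounds of 33 to 43. Its log2 ratios of 0.05, -0.09, 0.15 and -0.15 compare spots near the background. At this signal a difference between the groups was not detectable.

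The members were then set among all measured probes. In the plot of ratio against p, PTGES is the only member above the line for an unadjusted p of 0.05.

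**Figure D3:**
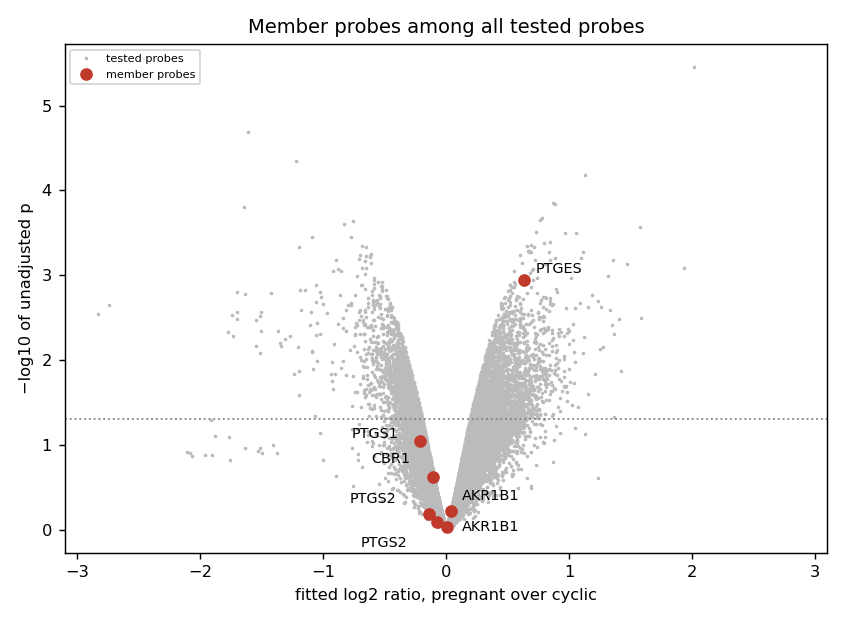
Fitted log2 ratio of pregnant over cyclic (x axis) against −log10 of the unadjusted limma p (y axis) for the 21627 measured probes in grey and the 7 measured member probes in red, with a dotted line at an unadjusted p of 0.05. Only the PTGES probe, at 0.64, lies above the line among the members, one of 3904 probes of all genes that do.

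The rest of the pathway was read from lists of genes. Of 19 listed genes of prostaglandin synthesis 12 had a named probe and 10 were measured, the 5 members among them. In this list 6 of 10 genes had a positive ratio and 0 passed over all probes. At an unadjusted p under 0.05, 3 were listed, all upwards, or 2 with the dim spots left out. Of all measured named genes 5.39% were listed upwards. The median ratio of the list was 0.09, against -0.02 over the 1744 measured named genes, of which 43.8% were positive. Of the 9 genes with 4 ratios 5 were positive on the 4 arrays, where 6.64% of named genes with 4 ratios were, and 1, PTGS1, was negative on the 4, where 12.9% were.

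Those 5 genes held all 3 synthases of prostaglandin E, though PTGES3 stood at 0.0025 on array 1 and the second PTGES probe was negative there (-0.05). PTGES2, the membrane-associated relative, had 0.14, 0.05, 0.49 and 0.23, with a fitted ratio of 0.23 ± 0.19 (SD, n = 4; limma, adjusted p = 0.306). PTGES3, the cytosolic relative and a co-chaperone of heat shock proteins, had 0.00, 0.11, 0.24 and 0.21, with 0.14 ± 0.11 (SD, n = 4; limma, adjusted p = 0.425). Both ratios are below that of PTGES and neither passed. FAM213B, a reductase that makes the F form, had ratios of 0.23 to 0.59 and a fitted 0.34 ± 0.17 (SD, n = 4; limma, adjusted p = 0.235). The aldo-keto reductase AKR1CL1 had 0.13 to 0.73 and a fitted 0.33 ± 0.28 (limma, adjusted p = 0.276), but its second probe gave 0.02.

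**Figure D4:**
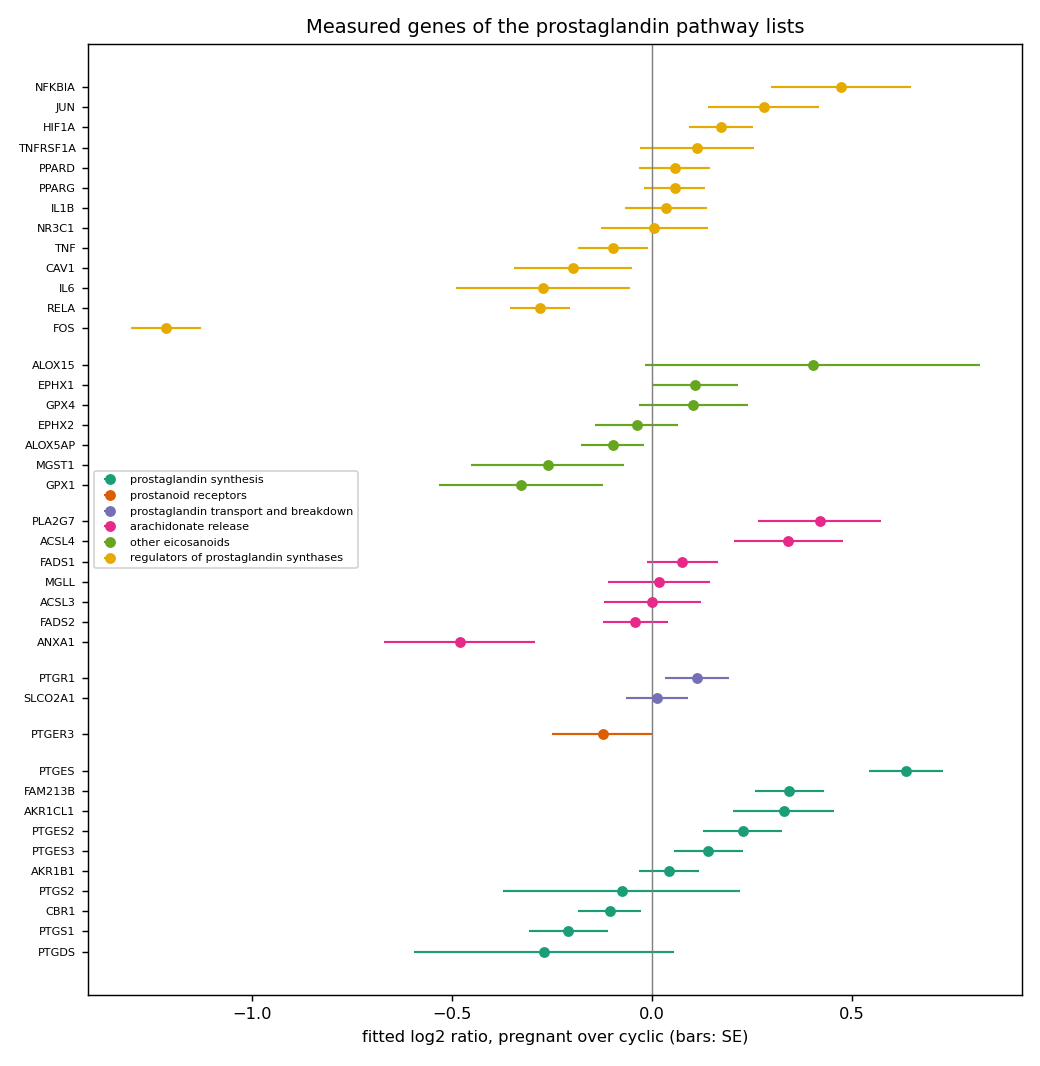
Fitted log2 ratio of pregnant over cyclic (x axis, bars SE) for the 40 measured genes of 6 lists (y axis), coloured by list; genes in a list are sorted by ratio. PTGES at 0.64 is the highest and FOS at -1.22 the lowest of the genes plotted, and 0 of them passed an adjusted p of 0.05. Each gene is shown by its brightest measured probe. ALOX15, plotted at 0.40, had another probe at 1.37.

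Receptors were hardly covered. Of 10 listed prostanoid receptors and partners 2 had a named probe and 1 was measured, PTGER3, a receptor of prostaglandin E that lowers cyclic AMP. Its ratios were -0.20, -0.33, 0.42 and -0.39, a fitted -0.12 ± 0.37 (SD, n = 4; limma, adjusted p = 0.632). Its second probe gave 0.09, of the opposite sign. In the list of transport and breakdown 2 of 8 genes were measured. SLCO2A1, the transporter that takes prostaglandins into cells, had 0.01 ± 0.05 (SD, n = 4), the smallest spread of the pathway genes on 4 arrays. PTGR1, a reductase that inactivates prostaglandins, had 0.11 ± 0.27. HPGD, which starts their breakdown, had no named probe and was not analysed here.

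For the supply of arachidonic acid 7 of 27 listed genes were measured, 5 with positive ratios and a list median of 0.02. PLA2G7, a phospholipase that cleaves platelet-activating factor, had 0.42 ± 0.35 (SD, n = 4; limma, adjusted p = 0.265). ACSL4, an acyl-CoA synthetase that prefers arachidonate, had 0.34 ± 0.50, with its 4 probes between -0.31 and 0.34. ANXA1, a glucocorticoid-induced inhibitor of phospholipase activity, had -0.48 ± 0.54 (SD, n = 3), with its 7 measured probes between -0.48 and -0.19; its array 4 ratio was 0.23. FADS1, a desaturase of the path to arachidonate, had 0.08 ± 0.22. None of the 7 passed over all probes.

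Among other eicosanoid genes 3 of 7 measured were positive and the list median was -0.04, with 0 listed at an unadjusted p under 0.05. GPX1, a glutathione peroxidase, had -0.33 ± 0.60 with its array 4 spot in the dim area, MGST1, a microsomal glutathione transferase, -0.26 ± 0.44 (SD, n = 3), ALOX5AP, a lipoxygenase partner, -0.10 ± 0.09 and EPHX1, an epoxide hydrolase, 0.11 ± 0.07 (SD, n = 3), with a second probe at -0.30. With the dim spots left out the list had 4 of 7 positive and a median of 0.05.

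Among 27 listed regulators of the synthase genes 13 were measured, 8 positive and 5 negative, with 0 passing over all probes and 1 listed upwards and 2 downwards at an unadjusted p under 0.05. FOS, a transcription factor of the immediate early response, had -1.22 ± 0.79 (SD, n = 4), and RELA, a subunit of NF-kappaB, -0.28 ± 0.05. NFKBIA, the inhibitor of NF-kappaB, had 0.47 ± 0.51, with a negative value on array 4 only, whose spot lies in the dim area. Its second probe gave 0.09. HIF1A, a hypoxia factor, had 0.17 ± 0.08 and was positive on the 4 arrays, with its array 4 spot in the dim area. The interleukin gene IL1B, a classic inducer of PTGS2 and PTGES, had 0.04 ± 0.32.

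The genes whose levels over the 8 gilts were most like those of each member are given as a description, with 8 values each from 4 arrays and 1489 genes compared. For PTGES they were TNFRSF12A, a receptor of the TNF family (Pearson r = 0.92), MUT, a mitochondrial mutase (0.85), and SELP, an adhesion receptor of platelets and endothelium (0.82). With the dim spots left out TNFRSF12A (0.94) and MUT (0.85) stayed first, and BMPR1B (0.80) replaced SELP. For PTGS2 they were KCNAB1, a potassium channel subunit (0.92), ATP2B1, a calcium pump (0.85), and ERLIN2 (0.80), which gave way to HSD17B1 (0.83) with the dim spots left out. For AKR1B1 they were GSTA1 (0.89), GAST (0.87) and KLF3 (0.87), and with the dim spots left out GAST (0.91), TFB1M (0.90) and KLF3 (0.90). For PTGS1 201 genes had an r of at least 0.8, led by SLC15A2 (0.96), CCK (0.95) and CHRM1 (0.95). With the dim spots left out it was 23 of 1365 genes, led by the same 3. For CBR1 the 3 first, CST3, MEA1 and DDOST (1.00 each to 2 decimals), were found with its dim array 4 spot included. Over the 6 gilts of the other arrays FYCO1, ENG and SELENOM took their place (0.98, 0.97 and 0.97). Among the members themselves the levels of PTGES and PTGS2 had an r of -0.36 and those of PTGES and PTGS1 -0.25 over the 8 gilts.

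Markers of the cells in the gland were compared the same way, and each mean level given for a list covers its genes with a ratio on the 4 arrays, dim spots included; whether fewer cells of a type or less RNA per cell underlies a bulk difference cannot be told apart. Of 12 endocrine markers 11 were measured, including the 7 hormone genes that define the tissue, with 3 positive and 8 negative ratios. The mean level of 10 of them, FSHB not included, was 13.68 to 14.54 in pregnant and 14.07 to 14.37 in cyclic gilts. That mean covers wide swings of single genes. The log2 ratios of TSHB ran from -4.85 to 6.30 over the arrays and those of GH1 from -2.39 to 2.16. PRL at -0.89 ± 0.83 and POU1F1 at 0.46 ± 0.23 (SD, n = 4) had the smallest p. Of the 5 stromal markers measured 4 had negative ratios, SPARC -0.62 (SD 0.28, n = 3) and ACTA2 -0.36 (SD 0.19, n = 4), and the mean level of 4 of them, SPARC not included, was 9.19 to 9.54 in pregnant and 9.31 to 9.79 in cyclic gilts. Endothelial markers were negative for 3 of 4, ENG at -0.35 and PECAM1 at 0.20 (its 3 probes between -0.26 and 0.20), with mean levels of 8.41 to 8.82 in pregnant and 8.66 to 8.98 in cyclic gilts. Folliculostellate markers were negative for 3 of 4, ANXA1 as above and CDH1 at -0.12 (its second probe at 0.04). The mean level of the 3 without ANXA1 was 8.17 to 8.94 in pregnant and 8.17 to 8.92 in cyclic gilts. Myeloid markers were negative for 4 of 7, CD74 at -0.28 and CD163 at -0.20, or for 3 of 7 with the dim spots left out. The mean level of 6 of them, CD163 not included, was 8.46 to 9.51 and 8.40 to 9.53 with the dim spots kept. Lymphocyte markers were negative for 2 of 4, CCL5 at 0.32 (its second probe at -0.01) and CD79A at -0.26. In that list 6 T- and B-cell genes with a probe, CD3E among them, did not meet the detection rule. Neural markers were negative for 2 of 4, AQP4 at 0.27 and MBP at -0.20, and the mean level of the 3 without MBP was 8.91 to 10.09 and 9.05 to 9.996. Of 5 erythrocyte markers 0 were measured.

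Proliferation markers were negative for 5 of 5, CCNB1 at -0.72 and CDK1 at -0.77 having the smallest p. Their mean level ran from 6.92 to 7.36 in pregnant and from 7.21 to 8.42 in cyclic gilts, and over the 8 gilts it had an r of -0.61 with the level of PTGES. The mean level of the 4 lymphocyte markers ran from 7.24 to 7.74 in pregnant and from 7.19 to 7.60 in cyclic gilts, with an r of 0.52. The part of these cells in the ratio of PTGES was not tested. The other marker lists with a mean level had an r with PTGES between -0.28 and 0.25, so those given are the farthest from 0. By array the proliferation markers had mean ratios of -0.05, -0.68, -1.42 and -0.05. PTGES had 0.27, 0.77, 0.57 and 0.94 on arrays 1 to 4. No marker of these lists passed an adjusted p of 0.05 over all probes in limma.

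**Figure D5:**
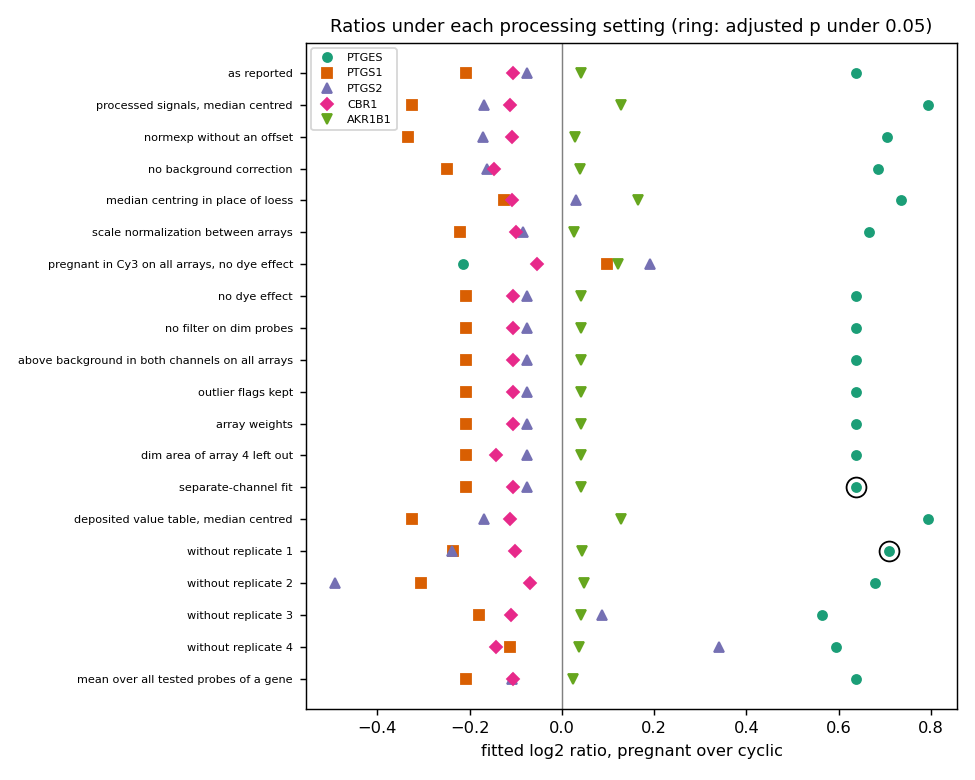
Fitted log2 ratio of pregnant over cyclic (x axis) of the 5 measured members, as reported and under each of 19 other settings (y axis), with a ring where the limma adjusted p was under 0.05. PTGES lies between 0.56 and 0.79 in the 18 settings with the dyes as labelled and is ringed in 2, while PTGS2 changes sign in 3 of them.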

How the data were processed

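Total RNA of 8 pituitaries (RNA integrity number at least 8) was labelled and 825 ng of cRNA per dye hybridised to each of 4 arrays of 1 slide, per the labels' protocols and file headers. The deposited scanner files hold, per the file headers, the median spot and background intensity of each dye from Agilent Feature Extraction 10.7.3.1, and processed signals. The authors' deposited value table holds log2 ratios, equal in size to processed Cy5 over Cy3 (r of 1 or -1 with the sample labels' dyes, 43661 values) and not centred; its software is not named in those files or labels. The dim area joins tiles (10 rows, 5 columns) of array 4 with 25% or more of bright spots missing, bright meaning 100 units above background.

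Background was corrected by normexp (offset 50), each array normalised by loess with control spots at weight 0, and outlier-flagged spots left out. Ratios were turned to pregnant over cyclic. Probes with unflagged spots on at least 3 arrays were fitted by limma 3.58.1 (R 4.3.3, lmFit and eBayes) with a dye effect and Benjamini-Hochberg adjustment over 21627 probes. SD follows the fitted ratio, which for probes on 3 arrays is not their plain mean. The 8 gilts are separate animals. A gene is represented by its brightest measured probe. Levels are log2 channel intensities after quantile normalisation of array averages. The fit was tested on simulated data. Gene names came from RefSeq accessions matched to the NCBI pig table (Sscrofa11.1): 5578 of 43603 probes matched, for 2459 genes; genome positions are not used here.

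The members, lists and tests were chosen with earlier results of these data known. Named are all members, the genes of each pathway list with the 4 smallest p and the direct partners of the members, the 3 genes most like each member, and 2 genes of each marker list. IL1B, ALOX15, TSHB and GH1 were added after their values were seen.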

Additional observations from a re-analysis of the deposited data

Results flagged for a closer look

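Dixon's test was run on 54 groups of 4 readings and singled out 1 reading in 7 groups; chance alone would single out about 1 group in 20, here 2.7. Of the 7, 5 concern levels on array 4. The second PTGES probe (A_72_P495640) stood at 6.31 in the pregnant gilt of array 4, against 8.24 to 8.48 in the others, and CBR1 at 7.07 in the pregnant and 7.04 in the cyclic gilt, against 9.98 to 10.26 and 10.10 to 10.41. Those spots lie in the dim area. PTGS1 stood at 7.49 in the pregnant and 7.99 in the cyclic gilt of array 4, against 7.16 to 7.17 and 7.23 to 7.32, from a spot outside the area. Before normalisation that spot read 126 and 101.5 intensity units, within the 80 to 175 and 89 to 175 of the other arrays. The brighter PTGS2 probe stood at 7.56 in the pregnant gilt of array 2, against 6.59 to 6.74. The log2 ratio of NFKBIA was -0.29 on array 4, in the dim area, against 0.69 to 0.80 on the other arrays.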

How the results depend on the processing

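With the dyes as labelled, PTGES kept a positive ratio in 18 of 18 alternatives, PTGS1 and CBR1 a negative one in 18 of 18, AKR1B1 a positive one in 18 of 18 and PTGS2 a negative one in 15 of 18. Several alternatives, such as array weights or no dye effect, left the fitted ratios unchanged, so the counts say little about stability. With the same sign on all arrays, as for PTGES and PTGS1, leaving out 1 array could not change it. AKR1B1 stayed near 0, from 0.02 to 0.17. Reading pregnant RNA as Cy3 on every array gave -0.22 for PTGES, 0.10 for PTGS1 and 0.19 for PTGS2, all reversed, and 0 calls. Median centring in place of loess reversed PTGS2, to 0.0317. Leaving out 1 array at a time gave 0.56 to 0.71 for PTGES, which passed without array 1, and -0.49 to 0.34 for PTGS2. The separate-channel fit called PTGES at 0.64 (limma, adjusted p = 0.0209). Over its 18 alternatives the adjusted p of PTGES ran from 0.0153 to 0.853, and no other member passed in any. The count of probes called was 0 as reported (3904 at an unadjusted p under 0.05). It was 1 with processed signals, normexp without an offset, no background correction, array weights or the deposited value table. Without the dye effect it was 2. In the separate-channel fit it was 1021 of 19880 probes, 634 of them higher, and on leaving out 1 array it was 0 to 3381. The causes were not tested. The ratios are already paired by array, and no further replicate block could be fitted. Leaving out the dim spots, added for levels and lists after the data were seen, kept mean levels of the 4 members outside the area within 1 SD. Low signal over background limits PTGS2 and PTGFR, and to a lesser degree PTGS1.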
